A study of Mus musculus with 4 samples.

Results

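The response of WT cardiac fibroblasts to phenylephrine was read from 2 of the 4 arrays of the series, the array of WT cells given phenylephrine and the array of untreated WT cells. Phenylephrine is an agonist of α1-adrenergic receptors and is widely used to provoke hypertrophic growth of cardiac cells. The fibroblasts came from 3-month-old male mice, were in culture for 4 days, and the treated cells received 30 µM phenylephrine over 72 h. The other 2 arrays carried RNA of untreated and phenylephrine-treated fibroblasts from PMCA4-/- mice, which lack the plasma membrane calcium pump encoded by Atp2b4 in every tissue. RNA was pooled from 3 batches of cells before it was put on an Affymetrix array. The methods also speak of several independent pools per genotype, while the files hold 1 array per condition, so how the pools map to the arrays is not settled. Since a condition was read on 1 array only, the spread between replicates is unknown, the WT differences carry no p-value, and their precision is limited by the number of arrays. Atp2b4 itself had 1 probe set, below the filter described further on, with PUMA intensities of 19.6 untreated and 23.3 treated on the arrays labelled WT and 31.6 and 37.9 on those labelled PMCA4-/-, and RMA intensities of 19.2 in untreated WT cells and 19.6 and 20.9 on the PMCA4-/- arrays, with treated WT cells lowest. It was thus not lower on the arrays labelled PMCA4-/-. The deletion removes the start of the coding sequence, the place of this probe set in the transcript is not given in the files, and a dim probe set outside the deleted exons would check nothing, so PMCA4-/- below means the arrays so labelled.

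An α1-adrenergic receptor couples to the G protein Gq. Gq activates phospholipase C, which releases calcium from internal stores and activates protein kinase C, and in cardiomyocytes this pathway acts through MAP kinases, calcineurin and NFAT. Cardiac fibroblasts make the collagen matrix of the heart and can turn into contractile myofibroblasts marked by smooth muscle actin, and α1-adrenergic receptors are better known from cardiomyocytes than from fibroblasts. The question addressed here was which genes of WT fibroblasts differed with phenylephrine, and by how much.

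Fibroblast markers were bright on both WT arrays. Of 13 fibroblast markers, 12 lay above the filter on dim probe sets described next, among them Dcn, a collagen-binding proteoglycan, at a PUMA intensity of 16737 in untreated cells and 17933 with phenylephrine, and Pdgfra, a growth factor receptor, at 11058 and 11456. Tcf21 was the marker below the filter, at 31.0 and 28.3 on its brighter probe set. Of the markers of other cell types, 1 of 11 measured for cardiomyocytes, 2 of 12 for endothelium and none of 11 for lymphocytes or 4 for erythroid cells were above the filter. Smooth muscle and pericyte markers passed for 4 of 10, Schwann and neural markers for 4 of 9, epicardial and mesothelial markers for 2 of 10 and adipocyte markers for 2 of 8. Macrophage markers passed for 6 of 15, while the defining genes Ptprc, Cd68 and Itgam lay below the filter. The summed PUMA intensity of the 6 was 1864 in untreated and 2097 in treated cells, against 10654200 and 11136500 over all genes above the filter. The 6 had log2 differences of 0.15 to 0.51 by PUMA and -0.04 to 0.35 by RMA, and the part of these cells in the results was not tested. In a pooled culture, more cells of a type and more RNA per cell cannot be told apart.

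The difference between the 2 WT arrays was small for nearly every gene. Each gene was read at its brightest probe set, and 11374 of 20586 genes were counted because the mean PUMA intensity of that probe set over both WT arrays exceeded 33.7, the median over all probe sets. PUMA and RMA are 2 ways of turning the probes of a set into a single intensity, and a gene was called when both put it past the same fold in the same direction. Only Bmp6 was at least 1.5-fold higher with phenylephrine in both, which is 0.00879% of the counted genes, and 0 genes (0%) were at least 1.5-fold lower. By PUMA alone 50 genes were higher and 49 lower at this fold, and by RMA alone 4 were higher and 9 lower. No gene reached 2-fold in both estimates.

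The log2 difference, phenylephrine minus untreated, had a median over counted genes of 0.04 by PUMA and -0.002 by RMA, with an SD over genes of 0.160 and 0.109. A smaller difference, 0.32 or more on the log2 scale in both estimates, was used to describe the shape of the response. By RMA 98.6% of the counted genes lay within 0.32, and by PUMA 94.7%. In both estimates 33 genes were higher by at least that much and 33 lower, in each case 0.290% of the counted genes. The log2 levels of the 2 arrays correlated across these genes at r = 0.997 by PUMA and 0.998 by RMA. Of the counted genes, 4881 (42.9%) were positive and 3627 negative in both estimates, which is the background for such counts in the lists below. Genes share arrays and are not independent replicates.

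**Figure D1:**
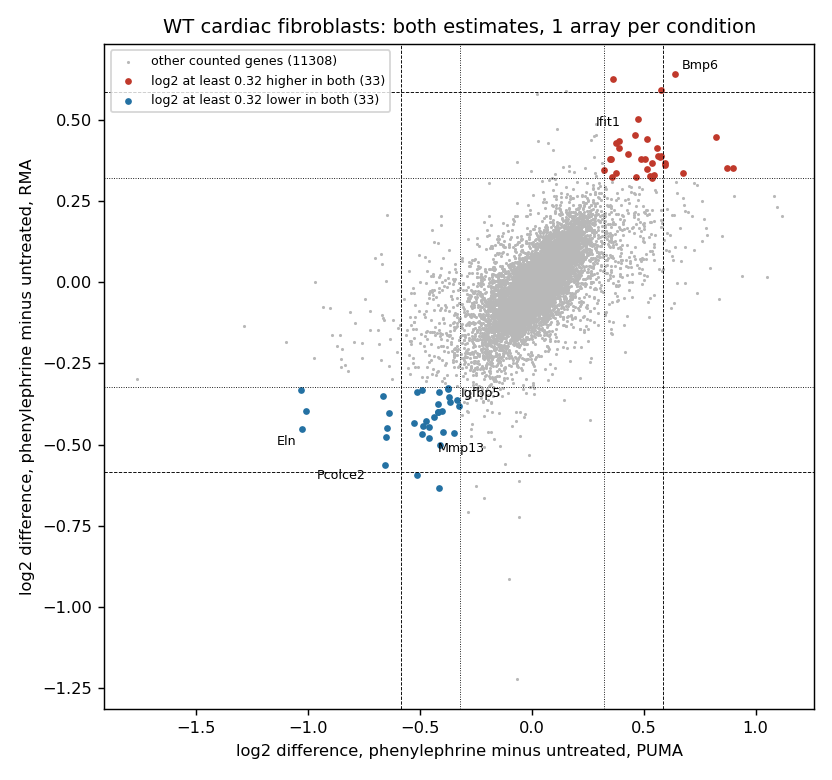
Log2 difference of each counted gene between the phenylephrine array and the untreated array of WT fibroblasts, by PUMA (x axis) and RMA (y axis). Dotted lines mark a difference of 0.32 and dashed lines 1.5-fold. Red and blue points are the 33 genes higher and 33 lower by at least 0.32 in both, and only Bmp6 lies past both dashed lines.

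Genes past 0.32 were mostly dim. Among genes with a mean PUMA intensity between the filter and 50, 23 of 711 (3.23%) were called, against 3 of 2866 (0.105%) above 1000. The SD of the PUMA difference over genes was 0.354 in the first of these ranges and 0.077 in the second. Of the 66 called genes, 46 had a mean under 100 and 10 a mean over 200. In 52 of the 66 only 1 probe set passed the filter, and of the 14 with several, all probe sets moved the same way in both estimates for 8. Over the 5102 genes with at least 2 such probe sets, the differences of the brightest pair correlated at r = 0.19 by PUMA and 0.23 by RMA, and differed between the pair with an SD of 0.142 and 0.093 on the log2 scale. Genes named at this smaller difference were chosen after their values were seen, with weight given to brightness and to probe sets that moved together.

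**Figure D2:**
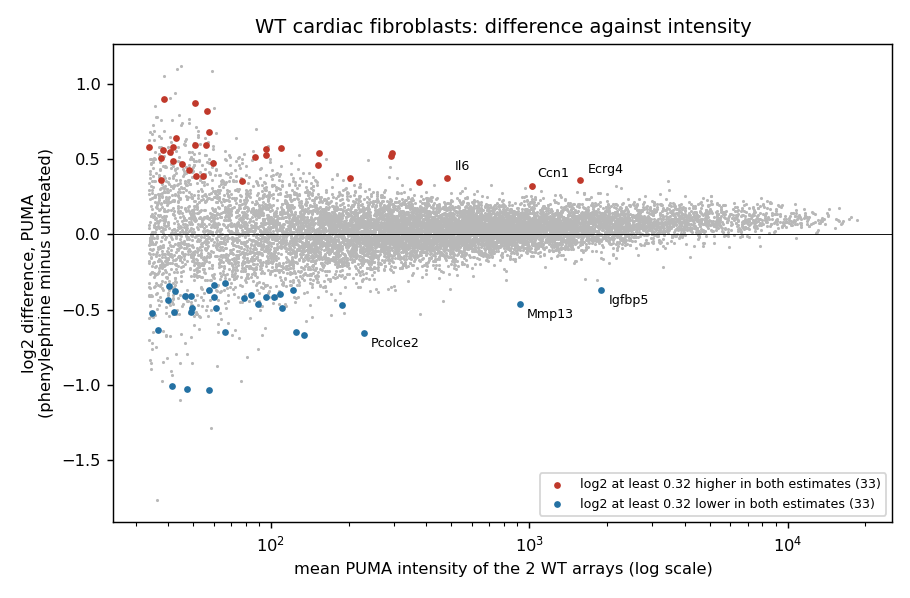
PUMA log2 difference in WT fibroblasts against the mean PUMA intensity of both WT arrays (log scale), 1 point per counted gene. The cloud narrows from an SD of 0.354 at the dim end to 0.077 at the bright end, and Ccn1, Ecrg4, Il6, Igfbp5, Mmp13 and Pcolce2 stand at its edge among the bright genes.

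The promoters of 4 genes on which the description turns are shown here, taken from the RefSeq annotation of GRCm38.p6 and covering 250 bases before to 50 bases after the transcription start, 5′ to 3′ on the strand of the gene. They are Bmp6, the only gene past 1.5-fold; Ccn1, the bright gene higher on the largest number of probe sets; Ifit1, which moved in opposite directions in WT and PMCA4-/- cells; and Igfbp5, which was lower in both. Capitals mark a match, on either strand, to the TEAD site GGAATG or to the interferon-stimulated response element. The cAMP response element TGACGTCA, the AP-1 site TGACTCA and the TCF site CTTTGAT were searched too, on both strands, and are not written in any of these 4 windows.
Bmp6, chr13:38345466-38345765, plus strand: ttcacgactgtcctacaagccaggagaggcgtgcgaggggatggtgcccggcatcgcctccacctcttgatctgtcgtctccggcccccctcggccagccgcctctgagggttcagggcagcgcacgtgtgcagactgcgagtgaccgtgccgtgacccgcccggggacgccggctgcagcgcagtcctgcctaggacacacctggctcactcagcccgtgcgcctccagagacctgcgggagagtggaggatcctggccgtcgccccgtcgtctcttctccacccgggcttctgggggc
Ccn1, chr3:145649936-145650235, minus strand: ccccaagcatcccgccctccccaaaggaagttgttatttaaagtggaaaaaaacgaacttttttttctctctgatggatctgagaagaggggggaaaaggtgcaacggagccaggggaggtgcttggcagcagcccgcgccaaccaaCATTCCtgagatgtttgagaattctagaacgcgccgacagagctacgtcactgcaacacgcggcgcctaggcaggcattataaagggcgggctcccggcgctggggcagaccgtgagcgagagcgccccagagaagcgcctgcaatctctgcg
Ifit1, chr19:34640639-34640938, plus strand: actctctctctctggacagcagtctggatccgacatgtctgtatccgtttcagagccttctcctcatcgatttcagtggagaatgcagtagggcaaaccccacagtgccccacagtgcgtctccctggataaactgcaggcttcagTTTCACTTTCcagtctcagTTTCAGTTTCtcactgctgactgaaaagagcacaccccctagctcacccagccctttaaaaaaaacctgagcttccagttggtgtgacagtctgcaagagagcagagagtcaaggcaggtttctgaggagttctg
Igfbp5, chr1:72874816-72875115, minus strand: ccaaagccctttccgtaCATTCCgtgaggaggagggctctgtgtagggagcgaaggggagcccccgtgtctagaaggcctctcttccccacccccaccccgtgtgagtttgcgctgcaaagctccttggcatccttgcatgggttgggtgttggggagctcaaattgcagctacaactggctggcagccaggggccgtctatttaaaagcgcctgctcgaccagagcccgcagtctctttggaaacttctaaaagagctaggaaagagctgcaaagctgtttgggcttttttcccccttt
The Ccn1 window held 1 TEAD site, the Igfbp5 window 1, and the Ifit1 window 2 interferon elements. Of all 32851 promoters of this length, 14.7% held GGAATG, 3.44% the interferon element, 1.79% TGACGTCA, 5.20% TGACTCA and 3.73% CTTTGAT. Of the genes past 0.32, 23 that were higher and 22 that were lower had a promoter in the annotation. Of these 45, 0 held the cAMP response element and 4 the AP-1 site, against 3.74% and 4.43% of the counted genes. With so few promoters the 0 says little. The TEAD site stood in 4 of the 23 and 7 of the 22, against 14.3% of the counted genes. A match of letters is a description and not a bound site.

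Bmp6 encodes a ligand of the TGF-β family that signals through BMP receptors. Its PUMA intensity was 33.6 in untreated WT cells and 52.3 with phenylephrine, and its RMA intensity was 49.4 and 77.1. The untreated PUMA value lay under the median of its array, so with that side raised to the median the gene was at least 1.54-fold higher, and the log2 difference was 0.64 by either estimate. It rested on a single probe set and was close to the filter. In PMCA4-/- cells both PUMA values, 16.2 untreated and 6.54 with phenylephrine, were below the array median and no fold is given for them. The gene nearest to the 1.5-fold threshold from below was 2500002B13Rik, with a 1.49-fold difference by PUMA and 1.51-fold by RMA, and it too had a dim side.

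Among bright genes that were higher with phenylephrine, Ccn1 and Ecrg4 had the widest backing from probe sets. Ccn1 encodes a secreted matricellular protein that binds integrins. It read 912 in untreated and 1141 in treated WT cells by PUMA, and 1201 and 1528 by RMA, a log2 difference of 0.32 and 0.35. All 4 of its probe sets were higher in both estimates, by 0.26 to 0.62 on the PUMA log2 scale. In PMCA4-/- cells its brightest probe set stood at 2579 untreated and 2470 treated, a PUMA log2 difference of -0.06. The probe sets did not agree on which genotype had the higher untreated level. By PUMA the next brightest read 693 in WT and 2026 in PMCA4-/- cells. The dimmer ones read 391 and 375 in WT and 285 and 313 in PMCA4-/- cells.

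Ecrg4, the precursor of a secreted peptide, read 1383 untreated and 1776 treated by PUMA, log2 differences of 0.36 by PUMA and 0.32 by RMA, and all 3 of its probe sets were higher. Il6, a cytokine that fibroblasts release in inflammation, read 419 and 544, with log2 differences of 0.38 and 0.34 on its only probe set. Both of these were also higher with phenylephrine in PMCA4-/- cells, Ecrg4 by 0.27 and 0.20 and Il6 by 0.27 and 0.23 on the same scales. Anxa8, a calcium-dependent phospholipid-binding annexin, read 176 and 228 by PUMA, with log2 differences of 0.38 and 0.43 and both probe sets higher. Cfap69, a protein of cilia and flagella, read 240 and 349 at its brightest probe set, but only 1 of its 3 probe sets was higher in both estimates and the other 2 had a median log2 difference of 0.03 by PUMA.

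The bright genes that were lower with phenylephrine included 3 of the extracellular space. Pcolce2, an enhancer of the proteinase that trims procollagen, read 280 in untreated and 178 in treated WT cells by PUMA and 416 and 282 by RMA, log2 differences of -0.65 and -0.56. Mmp13, a collagenase, read 1063 and 773 by PUMA and 1269 and 910 by RMA, differences of -0.46 and -0.48. Both genes were read from a single probe set, and in PMCA4-/- cells both lay far below the filter at 0.16 and 6.21 in untreated cells, so the other genotype gives no second reading of either.

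Igfbp5, a secreted protein that binds insulin-like growth factors, read 2138 and 1658 by PUMA in WT cells and 2706 and 2094 by RMA, a log2 difference of -0.37 in both estimates. It was lower in PMCA4-/- cells as well, from 5871 to 3076 by PUMA, a difference of -0.93 by PUMA and -1.07 by RMA. Its second probe set was dim, at 47.6 in untreated WT cells, and went the other way by 0.07 on the PUMA log2 scale.

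**Figure D3:**
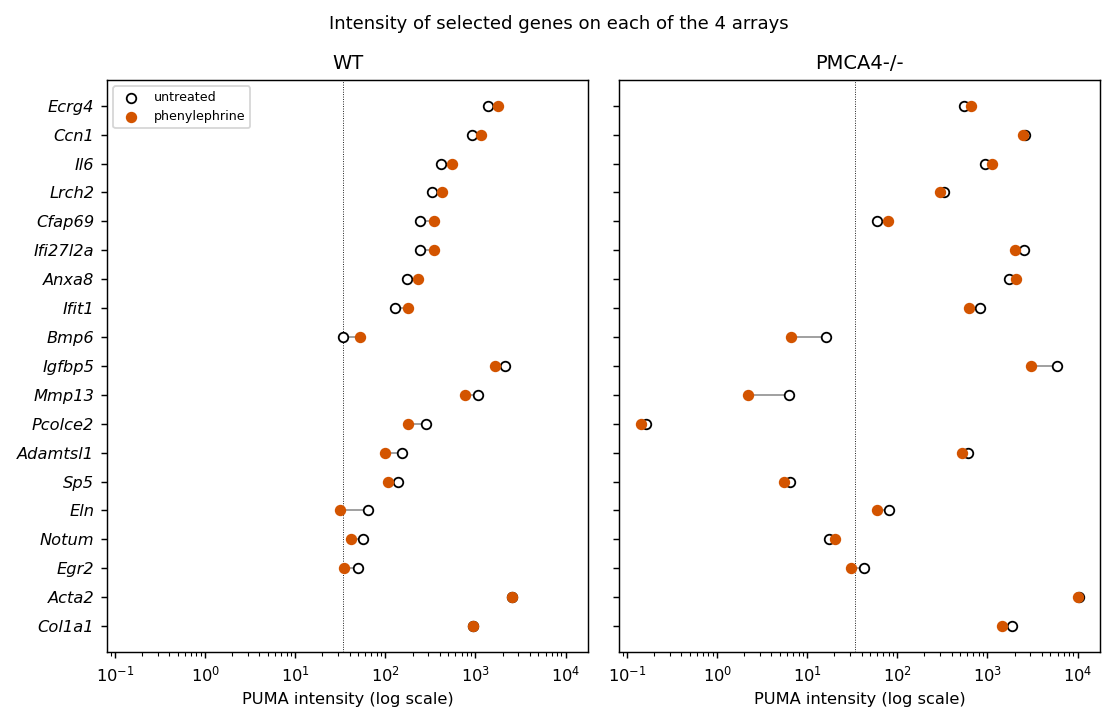
PUMA intensity (log scale) of 19 genes on the untreated array (open circles) and the phenylephrine array (filled circles) of WT and PMCA4-/- fibroblasts. The dotted line is the array median. In WT cells the circles of each gene lie close together, with Acta2 and Col1a1 almost on top of each other.

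The α-adrenergic receptors themselves were hardly measured. Adra1a and Adra1b, 2 of the α1 receptors through which phenylephrine acts, had PUMA intensities of 8.07 and 2.47 in untreated and 5.27 and 0.75 in treated WT cells, all under the array median. In PMCA4-/- cells they were as dim, at 9.64 to 11.2 for Adra1a and 1.06 to 2.76 for Adra1b. The α2 receptors Adra2a, Adra2b and Adra2c were also below the filter, and Adra1d was not analysed here. A dim probe set bounds a level and does not show that a receptor is missing.

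Downstream of the receptor, none of 21 counted genes of Gq and phospholipase C signalling passed 0.32 in both estimates, with a median log2 difference of 0.04 by PUMA and 0.003 by RMA. Gnaq, the α subunit of Gq, read 1579 and 1649 by PUMA. Regulators of G-protein signalling and receptor kinases had 0 of 17 called, although Rgs4 was lower by both estimates at -0.19 and -0.25. Rgs2, of the same family, was higher at 0.17 and 0.11 on its brightest probe set and at 0.35 and 0.30 on another. Calcineurin and NFAT genes had 0 of 15 called, with Rcan1, the feedback inhibitor that NFAT induces, at -0.05 and -0.12. Calcium pumps, exchangers and channels had 0 of 16 called.

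Of the immediate early transcription factors, which growth stimuli switch on rapidly and for a short time, 1 of 24 was called and it was lower. Egr2 read 49.6 untreated and 34.7 treated by PUMA, log2 differences of -0.51 and -0.34, and it was lower in PMCA4-/- cells by -0.49 and -0.41. In WT cells 14 of the 24 were negative and 4 positive in both estimates, with medians of -0.05 and -0.07, against 3627 negative and 4881 positive among all counted genes. Egr1, of the same zinc finger family, was at -0.16 and -0.18, Klf10 at -0.16 and -0.27, and Fosl2 on the positive side at 0.34 and 0.24.

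Genes of the myofibroblast state did not separate the arrays at this threshold. Acta2, smooth muscle actin, read 2549 and 2512 by PUMA and Tagln, an actin-binding protein of the same program, 726 and 747. None of 17 counted contractile genes was called, with medians of 0.01 and -0.03, and the highest RMA difference was that of Myl9, a myosin light chain, at 0.25 by PUMA and 0.19 by RMA. Among 18 targets of the serum response factor SRF and its coactivators and 15 of YAP and TEAD, Ccn1 was the single call, and Ccn2, its close relative, was at -0.13 and -0.08.

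Matrix genes followed the same pattern. None of 18 collagens was called, with medians of 0.005 by PUMA and -0.08 by RMA. Col1a1 read 933 and 930 and Col3a1 8088 and 8568 by PUMA. Col12a1, a fibril-associated collagen, was at -0.18 and -0.40. Of 24 matricellular and elastic fibre genes, Ccn1 was higher and Eln, elastin, lower, at 63.3 untreated and 31.1 treated by PUMA. Its treated side was under the array median, so it was at least 1.86-fold lower by PUMA, with log2 differences of -1.03 and -0.45, and -0.44 and -0.49 in PMCA4-/- cells. The other Eln probe set was below the filter and not lower, at 93.5 untreated and 99.1 treated by RMA in WT cells. Adamtsl1, a secreted matrix protein, was lower on both probe sets, from 153 to 97.8 at the brighter by PUMA, -0.65 and -0.48. Pcolce2 was the only call among 16 genes of collagen crosslinking and processing, and Mmp13 among 21 matrix proteases and inhibitors.

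**Figure D4:**
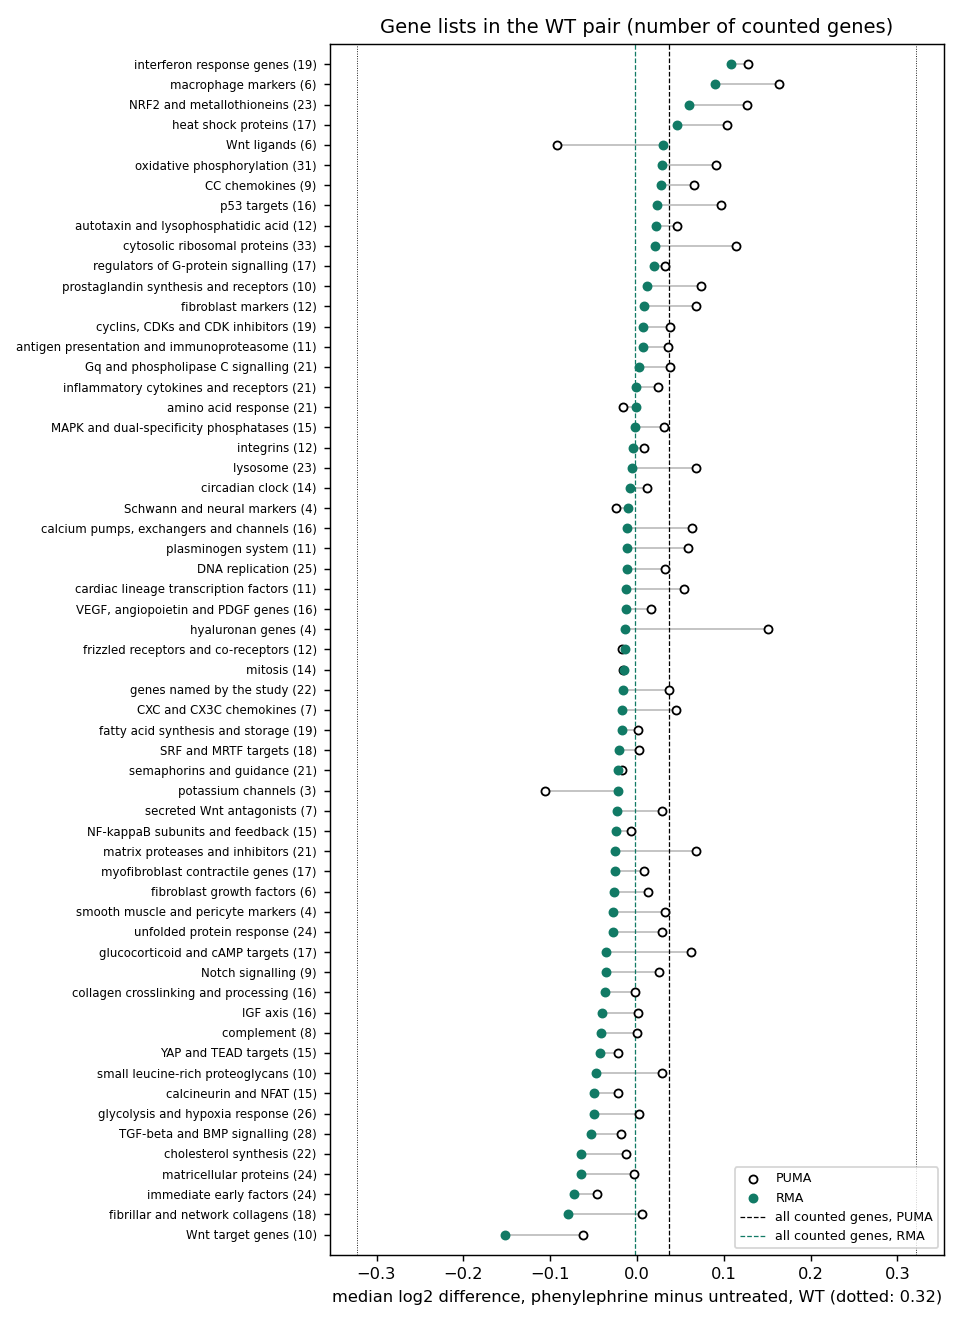
Median log2 difference in WT fibroblasts over the counted genes of each list with at least 3 of them (number in brackets), by PUMA (open) and RMA (filled). Dashed lines are the medians over all counted genes and dotted lines a difference of 0.32. No list reaches 0.32, and the 59 medians run from -0.106 to 0.163 by PUMA and from -0.152 to 0.109 by RMA.

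Among lists of at least 3 counted genes, Wnt targets had the lowest RMA median and interferon response genes the highest, whereas by PUMA potassium channels were lowest at -0.106 and macrophage markers highest at 0.163. Wnt ligands stabilize β-catenin, which with TCF factors switches on genes that include feedback inhibitors. Of 10 counted Wnt targets, 2 were lower and none higher, with medians of -0.06 and -0.15, and 7 were negative and 1 positive in both estimates. Sp5, a transcription factor, read 137 untreated and 106 treated by PUMA and 223 and 178 by RMA. Notum, an enzyme that inactivates Wnt ligands, read 55.8 and 42.0 by PUMA and 84.4 and 59.6 by RMA. In PMCA4-/- cells both lay below the filter on PUMA. Axin2, a feedback inhibitor, was at 0.08 by PUMA and -0.15 by RMA, so the 2 estimates differ in direction for it. None of the 6 counted Wnt ligands or 12 receptors was called, and among the ligands Wnt4 was at -0.53 by PUMA and -0.12 by RMA on one probe set, and at -0.0935 and -0.0889 on its other.

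Of 19 counted interferon response genes, Ifit1 was called and higher. In both estimates 14 (73.7%) were positive and 4 negative, against 42.9% positive over all counted genes and 72.7% of ribosomal protein genes. The medians were 0.13 by PUMA and 0.11 by RMA. Members ran from -0.48 to 0.46 by PUMA and from -0.15 to 0.45 by RMA. Ifit1, which binds foreign RNA, read 128 untreated and 177 treated by PUMA and 133 and 183 by RMA. Ifit2, of the same family, was at 0.27 and 0.30 and Gbp2, an interferon-induced GTPase, at 0.23 and 0.16. Ifi27l2a, an interferon-induced gene outside the list, read 240 and 343 by PUMA, log2 differences of 0.52 and 0.44. Irf7, Mx1, Rsad2 and Cxcl10 lay below the filter. Summed over the 19 genes, the PUMA intensity was 9740 in untreated and 10656 in treated WT cells, and the RMA intensity 13017 and 13946. The sum over all counted genes was also higher, at 10654200 and 11136500 by PUMA and 14874000 and 14932800 by RMA. The summed macrophage markers given above moved the same way, and their part in the result was not tested.

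Inflammatory genes other than Il6 gave no calls: 0 of 9 CC chemokines, 0 of 7 CXC and CX3C chemokines and 0 of 15 NF-κB subunits and feedback genes, with Ccl2 at 8463 and 8857 and Nfkbia at 6243 and 6213 by PUMA. In the cell cycle, Uhrf1, which recruits the maintenance DNA methyltransferase, was the single call among 25 DNA replication genes, at -0.32 and -0.38 with 74.2 untreated and 59.3 treated by PUMA, and 0 of 14 mitosis genes were called. Outside the lists, the repressor E2f7 was at -0.40 in both estimates. The centromere chaperone Hjurp was at -0.42 and -0.38 on its brightest probe set, but at -0.04 and 0.11 on another just above the filter. Pcna, the sliding clamp of DNA replication, was at 0.11 and 0.06.

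Ribosomal proteins, oxidative phosphorylation and NRF2 targets had more positive than negative genes without a call. Of 33 ribosomal protein genes 24 (72.7%) were positive and 1 negative in both estimates, against 42.9% positive over all counted genes. Their medians were 0.11 by PUMA and 0.02 by RMA. All counted genes above a mean of 1000 had medians of 0.07 and 0.01, which is the background for such bright genes. The share of positive genes in that range is not given here, so the 42.9% is not matched for brightness. NRF2 targets and metallothioneins had 17 of 23 (73.9%) positive and medians of 0.13 and 0.06, with Sod1, superoxide dismutase, at 0.20 and 0.17.

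Of 35 genes that the study itself names, 33 had a probe set here and 22 were counted, and Igfbp5 was the single call. The list comes from the study and is no independent choice. Igf1, the growth factor, read 3541 untreated and 3040 treated by PUMA, -0.22 and -0.26, while Igfbp3 was at -0.07 and -0.08 on its brighter probe set and -0.28 and -0.36 on the other, and Igfbp4 at 0.03 and -0.05 on the brightest of its probe sets. Sfrp1, a secreted Wnt antagonist, read 10450 and 10950. Sfrp2, its relative, was below the filter in WT cells at 0.30 and 0.47 by PUMA, against 1631 and 1390 in PMCA4-/- cells. Nppa, Nppb, Sfrp5, Wnt7a, Wnt7b, Pax1, Pax4, Pax5 and Pax6 were below it too.

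The PMCA4-/- pair was read beside the WT pair at the same probe sets. There 10 genes (0.0879%) were at least 1.5-fold higher and 16 (0.141%) lower with phenylephrine in both estimates, and at a log2 difference of 0.32 it was 87 (0.765%) and 94 (0.826%). Across the counted genes, the WT difference and the PMCA4-/- difference correlated at r = -0.03 by PUMA and 0.01 by RMA. The 2 pairs share no array. The genes had passed the filter on the WT arrays alone, and among the 10878 whose mean over the PMCA4-/- arrays also passed it, a restriction added after the data were seen, 4 were higher and 11 lower at 1.5-fold in PMCA4-/- cells, and 65 and 62 at 0.32.

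Of the 33 genes higher in WT cells by at least 0.32, 1 was past it the same way in PMCA4-/- cells (3.03% of the WT calls and 1.15% of the PMCA4-/- calls) and 2 the opposite way. The 1 was Calr3, a calreticulin relative, at 0.53 and 0.33 in WT and 0.35 and 0.38 in PMCA4-/- cells, and the 2 were Ifit1 and Ifi27l2a. Of the 33 lower genes, 6 were past it the same way (18.2% of the WT calls and 6.38% of the PMCA4-/- calls) and 0 the opposite way. These were Igfbp5, Eln, Egr2, Etl4, Mmp13 and 9930024M15Rik. Of them Etl4, Mmp13 and 9930024M15Rik had a mean below the filter in PMCA4-/- cells, and Mmp13 gives no second reading there. Of the 33 lower genes, 19 also passed the filter in PMCA4-/- cells, and 3 of these (15.8%), Igfbp5, Eln and Egr2, were past it the same way. Igfbp5 is the only one of the 6 with PUMA intensities over 1000 in both genotypes. Whether the response differed between the genotypes was not tested, since 1 array per condition leaves no error for it.

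**Figure D5:**
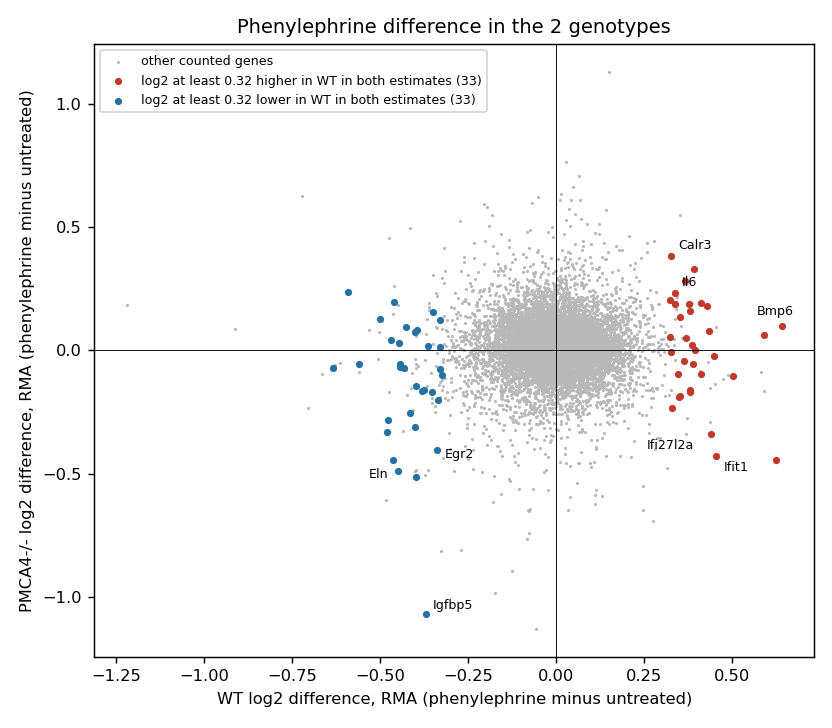
RMA log2 difference with phenylephrine in WT (x axis) and PMCA4-/- fibroblasts (y axis), 1 point per counted gene, with the 33 higher and 33 lower WT genes in red and blue. The cloud has no slope (r = 0.01), Igfbp5 lies low on both axes, and Ifit1 and Ifi27l2a lie right of and below the centre.

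All 4 arrays entered a limma fit of treatment with genotype as the other term. Its treatment term is the mean difference over both genotypes and its error is how far the genotypes differ in it, with 1 residual degree of freedom, so it is not a test of WT cells alone. After Benjamini-Hochberg adjustment limma called 0 genes higher (0%) and 0 lower (0%) of 11374, the smallest adjusted p was 0.979, and 470 genes had an unadjusted p under 0.05. By RMA values limma also called 0, with 501 genes under 0.05 unadjusted. With no effect in any gene, a share of 0.05 of the 11374 would be expected under that threshold, and both counts lay below it. Under 2 of its 6 alternatives limma made calls. With the upper quartile of intensity, Igfbp5 was lower at -0.65 (adjusted p = 0.00266 by limma) and Cfap69, whose other probe sets did not move with it, higher at 0.46. With an intensity trend, the limma calls among genes described above were Igfbp5, Egr1 and Adamtsl1 lower and Ecrg4, Il6 and Anxa8 higher. In that fit the prior degrees of freedom were infinite, against 3.09 in the main fit. Its error was thus set by intensity alone, and a call does not show that the genotypes agreed. Egr1 was at -0.16 in WT and -0.62 in PMCA4-/- cells by PUMA. Mmp13 was also called lower under both alternatives and Igfbp3 with the trend. Their terms rested on PMCA4-/- values with a mean below the filter and are not read.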

How the data were processed

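RNA was pooled from 3 batches of cells, and the authors used 6 µg to make biotin-labelled cRNA for an Affymetrix array. The paper names MOE430A, but the tables hold more probe sets than that array, so the type was not settled. It also speaks of several pools per genotype, and which of them each array holds was not settled either. Values as deposited are the intensity of each probe set on a linear scale, estimated by the authors with PUMA in one table and RMA in another, for 45037 probe sets. A further deposited table of intensity values equals the PUMA table (180148 of 180148 values within a share of 0.0001). Columns of the authors' own comparisons, a signed fold change and a probability of a positive log ratio, were not used. The submitters' notes also name MAS5. Software versions and the genome build: not given in the sources used here. Array medians were near the filter by PUMA and 72.5 to 73.0 by RMA.

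Intensities were log2-transformed without a pseudocount. The 37818 probe sets with 1 gene symbol were kept, 5820 had none, 1394 had several and 5 were unreadable. Symbols follow RefSeq GRCm38.p6 (31088 current, 3518 through an accession, 394 through an older symbol, 2818 as given). Genes were counted and called as described above. limma 3.58.1 in R 4.3.3 used lmFit and eBayes with a threshold of 0.05 on Benjamini-Hochberg adjusted p, and was tested on simulated data. Tables were handled in Python 3.11.15 with pandas 2.3.3.

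Named genes were the largest calls, the adrenergic receptors, the genes the study names, and up to 4 members of each list. Some results under this rule are not reported here. Genes at the smaller difference fall outside that rule. The comparison and the 67 lists were chosen with earlier results of these data known. Alternatives were either estimate alone, other folds, filters, scalings and probe sets.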

Additional observations from a re-analysis of the deposited data

Results flagged for a closer look

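In 2 genes phenylephrine went with opposite differences in the genotypes, past 0.32 on the log2 scale in both estimates. Ifit1 had a log2 difference of 0.46 by PUMA and 0.45 by RMA in WT cells and -0.41 and -0.43 in PMCA4-/- cells, where it read 827 untreated and 621 treated by PUMA against 128 and 177 in WT cells. Ifi27l2a was at 0.52 and 0.44 in WT cells and -0.35 and -0.34 in PMCA4-/- cells, with PUMA intensities of 2548 and 2002 in PMCA4-/- cells. The median of the 19 counted interferon response genes was 0.13 by PUMA and 0.11 by RMA in WT cells and -0.0789 and -0.0869 in PMCA4-/- cells. It was the only list of at least 3 counted genes whose medians were opposite and at least 0.05 in size in both estimates. The difference between the genotypes was not tested, because each condition had 1 array.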

How the results depend on the processing

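Each condition had 1 array, so no alternative has an error for the WT pair. No paired analysis was possible because each condition had 1 array and no replicate number to pair; the limma fit sets treated against untreated within each genotype. The 1 gene higher at 1.5-fold became 50 by PUMA alone, 4 by RMA alone, 33 at a log2 difference of 0.32, 0 at 2-fold, 30 without a filter, 0 with the upper quartile filter and 4 with the mean over all 4 arrays for probe set and filter, where Bmp6 is not counted. The 0 lower became 49, 9, 33, 18 without a filter and 5 with that mean, and stayed at 0 at 2-fold and in the upper quartile. Centring, quantile normalization, dim values raised to the array median and the median over probe sets left 1 and 0.

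At 0.32, a threshold chosen after the data were seen, the 33 higher became 323 by PUMA alone, 56 by RMA alone, 495 without a filter, 6 in the upper quartile and 7 above a mean of 200. The 33 lower became 276, 99, 299, 2 and 3, and 50 with the mean over 4 arrays. Scaling, dim values raised to the median and the median over probe sets gave 27 to 34 higher and 28 to 32 lower.

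limma called 5 genes higher and 4 lower with the upper quartile filter, and 17 and 23 with an intensity trend, and 0 and 0 without a filter, without the genotype term, by RMA and after quantile normalization. Prior degrees of freedom were 19.2 with the upper quartile and infinite with the trend, against 1.01 to 3.15 in the settings with 0 calls. A gene's own residual thus had less weight, or none, where limma made calls. Whether those calls would stand at equal weight was not tested. The share of 1.5-fold calls repeated in PMCA4-/- cells was 0% in the 1 gene called. That gene, Bmp6, lay below the array median by PUMA on both PMCA4-/- arrays, so this 0% decides nothing. By PUMA alone 8% of 50 were repeated. As background, PUMA put 126 of the 11374 counted genes past this fold upward in PMCA4-/- cells. In the dimmest range, from the filter to a mean intensity of 50, it was 37 of 711. That range held 32 of the 50 WT genes.

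Other probe sets turned the sign by PUMA for 4 of 14 called genes: Ago4 (0.0372), B3galt1 (0.25), Igfbp5 (0.0706) and Sp4 (-0.0295). Of 321 list medians under alternatives, 290 stayed within 0.0795 of the PUMA value, the prior SD of the fit, and 31 did not. Signal over background limits the rest, since 46 of the 66 calls have a mean under 100.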

Other observations

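Some groups outside the pathways above had no call and little shift. Cholesterol synthesis had 22 counted genes, 11 negative and 4 positive in both estimates, with medians of -0.01 by PUMA and -0.06 by RMA. Heat shock proteins had 17 counted genes, 12 positive and 2 negative, with medians of 0.10 and 0.05, while the inducible Hspa1a was at -0.30 and -0.33. Among targets of cAMP signalling, Pde4b, a cAMP phosphodiesterase, was at 0.33 by PUMA and 0.29 by RMA, Crem, a cAMP-responsive transcription factor, at 0.28 and 0.21, and Nr4a1, a nuclear receptor, at -0.27 and -0.26. Fabp4, a fatty acid carrier, read 506 untreated and 626 treated in WT cells by PUMA, at 0.31 and 0.22, and 0.24 and 0.21 in PMCA4-/- cells.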
